A study of Mus musculus with 3 samples.

Results

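Inhibitory receptors of the B lineage, the tyrosine phosphatases that act below them and the adaptor Dok3 were measured in sorted mouse bone marrow pre-B cells. The 10 genes were chosen by symbol for their known roles and matched through their Entrez identifiers, and all were present among the 26286 genes of the count table. They comprise the receptor genes Cd22, Siglecg, Fcgr2b, Cd72, Pirb, Lair1 and Cd5, the phosphatase genes Ptpn6 and Ptpn22, and Dok3. RNA was sequenced in 3 libraries that form 1 group. The donors were bitransgenic for CAG-rtTA3, a doxycycline-dependent transactivator under the broadly active CAG promoter, and TRE-GFP-shLuc.1309, an inducible cassette that joins GFP to a control short hairpin RNA. All received doxycycline for 3 days, and cells were sorted as GFP+, B220+, IgM-, Kit- and CD25+. There is no group without doxycycline or without the hairpin, so the measurements are levels and the spread between libraries. The labels do not say whether the libraries came from separate animals, so p-values measure only the spread between these samples, which may be technical in part.

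An inhibitory receptor of this class carries, in its cytoplasmic tail, a short tyrosine motif called an ITIM. When the receptor is brought close to an activating receptor, the kinase Lyn phosphorylates the motif, which then holds an SH2-domain phosphatase: Ptpn6 (SHP-1) in most cases, or the lipid phosphatase Inpp5d (SHIP-1) in the case of Fcgr2b. The phosphatase removes phosphate from nearby signalling proteins and dampens the response. In pre-B cells the activating receptor is the pre-B cell receptor, which signals through Cd79a, Cd79b and Syk.

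Library totals ran from 12021576 to 32086649 counts, with replicate 3 the deepest by 2.67-fold over the shallowest. Replicate 1 stood apart from the others by sex-linked RNA. Xist, the RNA of the inactive X chromosome in females, had 22609 counts there against 94 and 70 in replicates 2 and 3, and the Y-linked gene Ddx3y had 1 count there against 1950 and 4881. Replicate 1 thus held mainly female RNA and the others male RNA, so replicate 1 did not come from the same animal as the others, and sex and library cannot be told apart there. Of the 4 genes of the sort gate, 3 went with the labels: Ptprc, the CD45 gene, stood at 107 ± 8.56 RPKM and Il2ra, the CD25 gene, at 89.3 ± 17.4 RPKM, against 0.790 ± 0.324 RPKM for Kit (SD, n = 3 each). The fourth, Ighm, which encodes the IgM heavy chain, was the highest gene of the table, at 7206, 6757 and 6280 RPKM, although the gate was IgM-. Pre-B cells are known to make this heavy chain without carrying IgM on their surface. RPKM, the unit of every level given here unless another is named, is the read count divided by gene length and by the scaled total of the library. The neutrophil markers were not at 0, however: all 10 stood at or above 1 RPKM in each library, and their summed level was 1351, 1626 and 2423 RPKM in replicates 1, 2 and 3.

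The 10 genes are described here as a high and a low group, a division that was not planned. By mean level the step between the groups, from Fcgr2b to Pirb, was 5.57-fold. Within the low group the step from Pirb to Ptpn22 was larger, at 9.02-fold. Cd72, Dok3, Siglecg, Ptpn6, Cd22 and Fcgr2b each stood above 30 RPKM in each library, a level reached by 11.2% of all genes in the table. Pirb, Ptpn22, Lair1 and Cd5 stood below 10 RPKM in each library, and the last 3 of them at or near 1 RPKM or below. In all, 7 of the 10 reached 1 RPKM in each library, against 42.4% of all genes. The median of the 10 on the log2(RPKM + 0.5) scale was 5.40 ± 0.12 (SD over libraries, n = 3), against 2.56 for the 17423 genes with a count. From Cd72 to Cd5 the mean level differed 1857-fold.

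**Figure D1:**
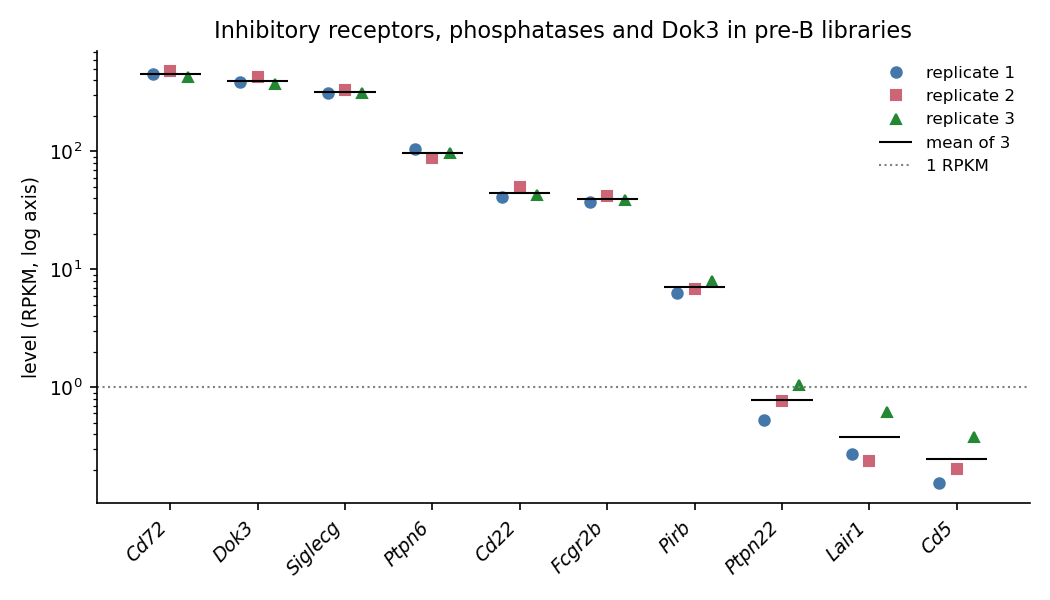
Level of each of the 10 genes (RPKM, log axis) in the 3 libraries, one symbol per library, with a bar at the mean and a dotted line at 1 RPKM. The libraries lie close together from Cd72 (mean 454.5 RPKM) to Pirb (7.06 RPKM), and spread apart for Ptpn22, Lair1 and Cd5.

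Cd72 (Entrez 12517) encodes a C-type lectin-like coreceptor whose tail carries an ITIM that binds Ptpn6. It was the highest of the 10, at 454, 478 and 431.5 RPKM in replicates 1, 2 and 3, or 454.5 ± 23.4 RPKM (SD, n = 3), from 8503, 8637 and 20735 counts. It ranked 100 among all 26286 genes by mean level. Replicate 2 was the highest library and replicate 3 the lowest, and the spread was 5.15% of the mean. In the annotation of GRCm38 the gene Tesk1 overlaps Cd72. Tesk1 had 763, 685 and 2116 counts, and the sources used here do not state how reads in a shared stretch were assigned.

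Siglecg (Entrez 243958) and Cd22 (Entrez 12483) encode sialic acid-binding lectins of the Siglec family, both with ITIMs and both known as restraints on B cell receptor signalling. Siglecg stood at 313, 332 and 311.5 RPKM, a mean of 319 ± 11.4 RPKM, and had the smallest relative spread of the 10, with a coefficient of variation of 3.56%. Cd22 stood at 41.0, 50.3 and 43.1 RPKM, a mean of 44.8 ± 4.85 RPKM. The ranges of this pair did not overlap. Within each library Siglecg exceeded Cd22 by 6.60-fold to 7.64-fold per unit of gene length, and the log2 difference of Cd22 minus Siglecg was -2.82 ± 0.10 (n = 3; exact sign-flip permutation test, two-sided p = 0.25, the smallest that 3 libraries allow). The annotated length of Cd22 is 4314 bases and that of Siglecg 2484 bases.

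Fcgr2b (Entrez 14130) encodes the inhibitory receptor for IgG, which in B cells acts through Inpp5d. It had 713, 782 and 1920 counts, giving 37.0, 42.1 and 38.8 RPKM and a mean of 39.3 ± 2.59 RPKM. The libraries overlapped the range of Cd22, although Cd22 was the higher of this pair in each of the 3 libraries. Of the activating Fc receptor genes, Fcgr3 stood at 3.56, 4.37 and 5.04 RPKM, Fcgr4 at 0.577, 0.799 and 1.10 RPKM, and Fcgr1 at 0.0620, 0.0643 and 0.205 RPKM. Fcgr2b thus exceeded Fcgr3 by 7.70-fold to 10.4-fold within libraries, with a log2 difference of 3.05 ± 0.20. Of the 31-base words in Fcgr2b transcripts, 4.15% also occur in Fcgr3 transcripts, so the count of Fcgr3 is the less certain.

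Dok3 (Entrez 27261) encodes a docking adaptor that, once phosphorylated, recruits Inpp5d and Grb2 and restrains calcium signalling in B cells. It was second of the 10, at 391, 429 and 372 RPKM, a mean of 397 ± 29.0 RPKM. Replicate 2 was again the highest library and replicate 3 the lowest. The range of Dok3 ended just under that of Cd72, whose lowest library stood at 431.5 RPKM, and lay above that of Siglecg.

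Ptpn6 (Entrez 15170), the SHP-1 gene, stood at 105, 88.8 and 96.8 RPKM, a mean of 96.8 ± 8.05 RPKM. It was the only one of the 10 to be highest in replicate 1. Its range lay below that of Siglecg and above that of Cd22, and overlapped neither.

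The promoters of the 3 highest and 3 lowest genes are shown because these genes span the whole range of levels. Each line gives the 100 bases before the first annotated start site, 5′ to 3′ on the gene's own strand, from RefSeq on GRCm38.p6, which is not the mm9 build of the counts. All 10 genes matched the RefSeq promoter table. Capitals mark words matched on either strand among GAGGAA (the core bound by PU.1 and its ETS relatives), the longer AGAGGAAG, which contains it, CAGGTG (an E-box read by E proteins), TGGGAA (an Ikaros core) and CCCNNGGG (the paired sites read by Ebf1).
Cd72, chr4:43454627-43454726, minus strand: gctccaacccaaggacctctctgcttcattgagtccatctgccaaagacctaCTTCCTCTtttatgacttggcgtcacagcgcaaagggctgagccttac
Dok3, chr13:55528539-55528638, minus strand: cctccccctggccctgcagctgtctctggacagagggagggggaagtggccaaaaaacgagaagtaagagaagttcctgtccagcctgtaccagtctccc
Siglecg, chr7:43408139-43408238, plus strand: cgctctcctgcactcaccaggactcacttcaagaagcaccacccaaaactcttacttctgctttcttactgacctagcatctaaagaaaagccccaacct
Ptpn22, chr3:103859695-103859794, plus strand: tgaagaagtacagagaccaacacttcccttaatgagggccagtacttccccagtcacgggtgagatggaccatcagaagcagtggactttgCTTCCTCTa
Lair1, chr7:4063205-4063304, minus strand: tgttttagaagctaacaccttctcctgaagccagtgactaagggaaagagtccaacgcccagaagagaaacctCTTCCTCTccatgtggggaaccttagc
Cd5, chr19:10738975-10739074, minus strand: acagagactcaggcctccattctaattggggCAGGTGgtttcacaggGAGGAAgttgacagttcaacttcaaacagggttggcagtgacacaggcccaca

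The same AGAGGAAG word stood 48 bases before the start site of Cd72, the highest of the 10, 9 bases before that of Ptpn22 and 27 bases before that of Lair1, which are among the lowest. Over 250 bases upstream, AGAGGAAG occurred in 3 of the 10 promoters, against 3.64% of 27025 genes with a promoter in the table, and its GAGGAA core in 6 of 10 against 23.1%. CAGGTG occurred in 4 of 10 against 17.1%, TGGGAA in 5 of 10 against 21.5%, and CCCNNGGG in 1 of 10, that of Cd22, against 11.7%. The octamer ATTTGCAT occurred in none of the 10, against 1.61%, and TATAAA in none, against 13.0%. The promoters of Dok3 and Fcgr2b held none of these words in their 250 bases. A match describes the letters of the window and no binding was measured.

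Pirb (Entrez 18733) encodes a paired immunoglobulin-like receptor with ITIMs that binds class I histocompatibility molecules and is known from B cells and, at higher levels, from myeloid cells. It was the highest of the low group, at 6.29, 6.87 and 8.01 RPKM, a mean of 7.06 ± 0.878 RPKM from 214, 225 and 699 counts. Its range lay below that of Fcgr2b and above that of Ptpn22. The activating relatives Pira1 and Pira2 stood at 1.72 ± 0.325 and 0.329 ± 0.207 RPKM. Of the 31-base words of Pirb transcripts 43.8% occur in other genes, and 23.7% in Gm14548 alone, so the division of reads between Pirb and genes that share its sequence is uncertain.

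Lair1 (Entrez 52855) encodes an ITIM receptor for collagens, known from many leukocytes. It had 12, 10 and 70 counts, or 0.274, 0.237 and 0.623 RPKM, with exact Poisson 95% intervals of 0.142 to 0.479, 0.114 to 0.436 and 0.486 to 0.788 RPKM. The interval of replicate 3 lay above those of the other libraries. Pirb exceeded Lair1 by 12.9-fold to 29.0-fold within libraries, and on the log2(RPKM + 0.5) scale, which shrinks the difference of a low gene, by 3.12 ± 0.20. With a pseudocount of 0.1 the latter difference was 3.98, and with 1 it was 2.55.

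Cd5 (Entrez 12507), a scavenger-receptor family protein that dampens antigen receptor signals in T cells and B-1 cells, was the lowest of the 10. It had 4, 5 and 25 counts, or 0.155, 0.201 and 0.378 RPKM, with 95% counting intervals of 0.0422 to 0.397, 0.0653 to 0.469 and 0.245 to 0.558 RPKM. The intervals of the 3 libraries overlapped, which is not a test of a difference. Cd5 did not pass the filter on low counts, so its spread was not among those tested against counting noise. Of the genes whose products belong to the T cell receptor complex, Cd3d, Cd3g and Cd3e stood at 0.478 ± 0.130, 0.237 ± 0.137 and 0.220 ± 0.0480 RPKM, whereas Cd247 stood at 11.2 ± 0.817 RPKM.

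Ptpn22 (Entrez 19260) encodes a phosphatase that acts with the kinase Csk against Src-family kinases. It had 18, 25 and 92 counts, or 0.529, 0.763 and 1.05 RPKM, a mean of 0.782 ± 0.263 RPKM. Csk itself stood at 295.5, 304 and 310 RPKM, and was 294-fold to 559-fold above Ptpn22 within libraries. The ranges of Ptpn22 and Lair1 overlapped, and so did those of Lair1 and Cd5, although the order Ptpn22, Lair1, Cd5 was the same in each of the 3 libraries.

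The families of the phosphatases and of Dok3 were unevenly expressed. Ptpn6 was the highest of 17 non-receptor tyrosine phosphatase genes, of which 11 reached 1 RPKM in each library. Ptpn1 followed at 38.2 ± 1.57 RPKM, Ptpn11, the SHP-2 gene, at 23.6 ± 0.705 RPKM and Ptpn18 at 14.5 ± 1.91 RPKM, whereas Ptpn22 was 12th in order. Ptpn6 exceeded Ptpn11, which encodes its closest relative, by 3.88-fold to 4.42-fold within libraries, a log2 difference of 2.01 ± 0.10. Per count rather than per length that difference was 0.81, because the annotated length of Ptpn11 is the greater. The lowest members were Ptpn13, at 0.00700 ± 0.00612 RPKM, and Ptpn20, whose count was 0 in each library, a limit of 0.0808 RPKM (3 counts in the library where they weigh most).

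In the Dok family Dok3 stood alone at a high level. Dok1 was at 18.7 ± 0.178 RPKM, so that Dok3 exceeded it by 19.9-fold to 23.0-fold within libraries, a log2 difference of 4.37 ± 0.11. Dok4 was at 1.66 ± 0.329 RPKM, Dok2 at 0.472 ± 0.292 RPKM and Dok7 at 0.418 ± 0.0967 RPKM. Dok5 and Dok6 were at 0 counts, with upper limits of 0.141 and 0.251 RPKM. The 8 differences between gene pairs that were computed included 7 with 1 sign in all 3 libraries. None could pass 0.05 (exact sign-flip permutation test, two-sided p = 0.25 for those 7, 0.286 after Benjamini-Hochberg adjustment over the 8).

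RNA for the kinases and effectors that act with ITIM receptors was found throughout. All 11 genes of the kinase and effector list reached 1 RPKM in each library, with a list median of 5.52 ± 0.05 on the log2(RPKM + 0.5) scale. The highest were Csk, Lyn at 136 ± 5.29 RPKM, Inpp5d at 105 ± 1.20 RPKM and Sh2b3 at 69.6 ± 5.89 RPKM. The lowest were Inppl1, the SHIP-2 gene, at 10.9 ± 1.55 RPKM and Pag1, a membrane anchor for Csk, at 8.44 ± 0.759 RPKM. Inpp5d and Ptpn6 stood at nearly the same level per length: Inpp5d minus Ptpn6 was 0.12 ± 0.13 on the log2 scale, with 1 sign in 2 of 3 libraries (exact sign-flip permutation test, two-sided p = 0.5). Per count, Inpp5d was higher by 1.15 on that scale.

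Genes of the activating receptor and its signalling were also measured. All 8 genes of the receptor signalling list reached 1 RPKM in each library, with a median of 8.44 ± 0.13 on the log2(RPKM + 0.5) scale. Cd79b stood at 1297 ± 56.5 RPKM, Cd79a at 721 ± 30.03 RPKM and Syk at 623 ± 22.7 RPKM, so that Cd72 and Dok3 lay in the range of the signalling genes and Cd22 and Fcgr2b below all 8, the lowest of which were Plcg2, at 94.9 ± 3.16 RPKM, and Vav1, at 61.0 ± 1.52 RPKM.

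Genes for ligands of these receptors were measured in the same cells. The class I genes that provide the ligand of Pirb were high, with B2m at 1382 ± 79.5 RPKM, H2-D1 at 925 ± 52.9 RPKM and H2-K1 at 561 ± 36.8 RPKM. St6gal1, which makes the alpha-linked sialic acid that Cd22 binds, stood at 66.9 ± 5.45 RPKM. Sema4d, whose product is a ligand of Cd72, stood at 23.8 ± 1.12 RPKM. The collagen genes that would supply the ligand of Lair1 were low: Col4a1 was at 0 counts, with an upper limit of 0.0378 RPKM, Col3a1 had a single count, in replicate 2, and Col1a1 had 8, 87 and 27 counts.

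Among 22 other genes for inhibitory receptors and related receptors, 13 reached 1 RPKM in each library. The list median on the log2(RPKM + 0.5) scale was 1.34 ± 0.33. Pecam1, an ITIM-bearing adhesion receptor, was highest at 80.4 ± 14.2 RPKM, followed by Ceacam1 at 45.1 ± 2.65 RPKM, Fcrl1 at 23.1 ± 5.82 RPKM and Milr1 at 16.1 ± 2.49 RPKM. Pecam1 and Ceacam1 were thus at the level of Cd22 or above it. The lowest were Ctla4, with 0, 1 and 2 counts, and Fcrl5, with 0, 0 and 1 counts.

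The spread between libraries was then set against counting noise and against other genes. Of the 10 genes, 9 passed the filter on low counts, and Cd5 did not. By a chi-square test against Poisson noise, adjusted by Benjamini-Hochberg over 12147 genes, the counts of 8 of the 9 differed between libraries, against 54.6% of the genes tested. The smallest adjusted p was 5e-24, for Dok3, and Fcgr2b was the exception at 0.066. A gene with many counts passes this test at a small relative difference: the coefficient of variation of the 6 high genes was only 3.56% to 10.8%. Without replicate 2 the calls of Cd22 and Siglecg were lost (adjusted p = 0.199 and 0.409). Without replicate 3 those of Lair1, Pirb and Ptpn22 were lost (adjusted p = 0.855, 0.562 and 0.426), and without replicate 1 those of Pirb and Ptpn22 (0.0895 and 0.245). With replicate 3 thinned to the smallest library total, Pirb and Ptpn22 were not called (adjusted p = 0.228 and 0.144) and Fcgr2b was (0.0426), as it was without replicate 3 (0.0481). Lair1 then failed the filter on low counts and was not tested, so that 6 were called in all. Leaving out a library also moved the count over all genes, to 4254 without replicate 2 and 3149 without replicate 3.

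Against genes with similar counts, no excess spread was called for any of the 9. An F test computed here from edgeR's quasi-likelihood fit of 1 group set each gene's dispersion against that of genes of like abundance. It is not a test that edgeR provides. By this F test the adjusted p was 0.938 for Lair1 and 0.996 for each of the other 8 (Benjamini-Hochberg). Of the 9, 0 had an unadjusted p under 0.05. Over all genes tested, 0.0165% were called by adjusted p and 5.37% had an unadjusted p under 0.05. The biological coefficient of variation over all genes, the relative spread between libraries beyond counting noise, was 13.1%. The largest level in a library exceeded the smallest by 1.20-fold in the median over the 10 genes and by 1.21-fold in the median over genes tested.

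The library with the highest level differed among the 10 genes. Cd72, Dok3, Siglecg, Cd22 and Fcgr2b were highest in replicate 2, as were 35.8% of the genes tested, and Ptpn6 was highest in replicate 1. Pirb, Ptpn22, Lair1 and Cd5, the whole low group, were highest in replicate 3, as were 37.5% of the genes tested. Replicate 3 exceeded replicates 1 and 2 by 2.27-fold and 2.63-fold for Lair1, 2.44-fold and 1.88-fold for Cd5, 1.99-fold and 1.38-fold for Ptpn22, and 1.27-fold and 1.17-fold for Pirb.

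**Figure D2:**
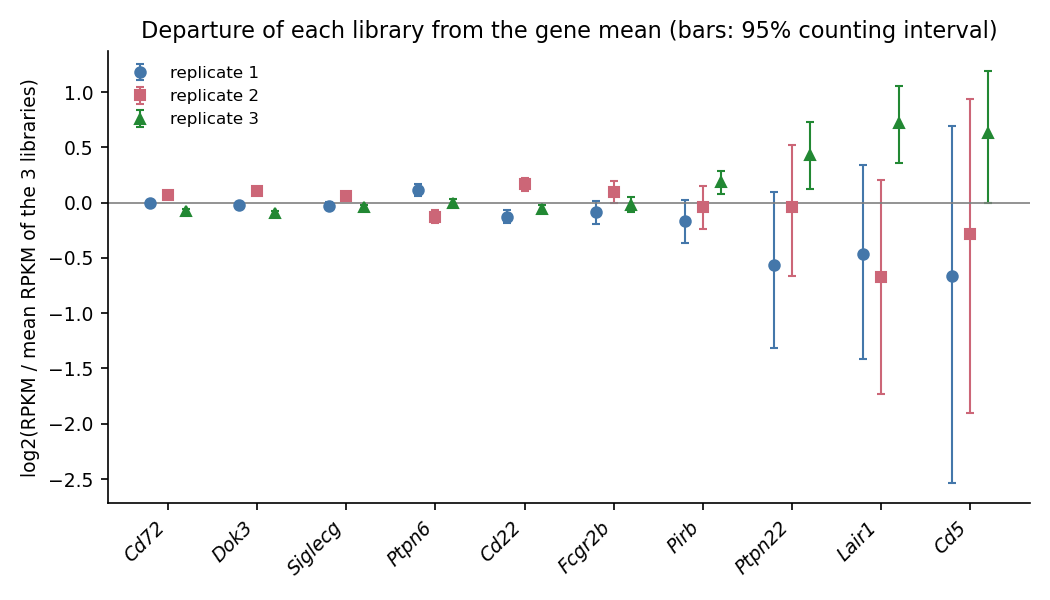
Departure of each library from the mean of the 3 libraries, as log2(RPKM / mean RPKM), with exact Poisson 95% intervals that cover counting error only. Replicate 2 is the highest of the libraries for Cd72, Dok3, Siglecg, Cd22 and Fcgr2b, and replicate 3 for Pirb, Ptpn22, Lair1 and Cd5, where the intervals are widest.

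Replicate 3 is also the library labelled with version 1.8.0 of CASAVA, Illumina's processing software, against 1.8.2 for replicates 1 and 2, so the version, the depth and the sample cannot be told apart. This arm has no replicate: the spread comes from replicates 1 and 2 and the fit over genes, and replicate 3 is assumed to vary like them. Replicates 1 and 2 differed in sex-linked RNA, so any difference by sex is part of that spread. In edgeR's quasi-likelihood test of this contrast none of the 9 genes was called, against 0.0741% of the 12147 genes (0.0576% higher and 0.0165% lower in replicate 3). DESeq2 called none of the 9 either, against 0.296%. Lair1 had the largest difference, with a log2 fold change of 1.28. It was the only 1 of the 9 with an unadjusted p under 0.05 by edgeR, against 9.69% of genes, and 0 of the 9 reached that by DESeq2. For Ptpn22 the log2 fold change was 0.71 and for Pirb 0.29. The other 6 lay between -0.14 for Dok3 and 0.00 for Ptpn6. Cd5, fitted only when all genes with a count were kept, had a log2 fold change of 1.07.

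Markers of other cell types moved in the same direction as the low group. Of the genes tested, 37.5% were highest in replicate 3, the share to set beside each count here. Of the 10 neutrophil markers 8 were highest in replicate 3, and their sum was 1.79-fold and 1.49-fold that of replicates 1 and 2. S100a9 stood at 566, 700.0 and 1059 RPKM in replicates 1, 2 and 3, S100a8 at 406.5, 479 and 754 RPKM, and Elane, the lowest of the list, at 3.23, 2.44 and 2.75 RPKM. Of the 10 monocyte and macrophage markers 9 were highest in replicate 3, and 6 stood at or above 1 RPKM in each library. Their summed level was 189, 222 and 272 RPKM, of which Lyz2 alone gave 155, 186 and 229 RPKM. The defining gene Cd14 had 1, 0 and 17 counts. Of the 8 dendritic cell markers 7 were highest in replicate 3, with sums of 11.9, 12.2 and 22.9 RPKM. Bst2 made up most of these sums, at 8.97, 9.96 and 15.7 RPKM, and 1 of the 8 reached 1 RPKM in each library. Clec9a had 0, 0 and 3 counts, too few to compare between libraries of unlike depth. All 6 basophil and mast cell markers were highest in replicate 3, with sums of 3.56, 7.22 and 24.5 RPKM, led by Prss34 at 2.37, 3.77 and 14.6 RPKM. These cell types are known to express Pirb, Lair1 or both, and all 7 activating counterparts matched of 10 named (Tyrobp, Fcer1g, Fcgr3, Fcgr4, Fcgr1, Pira1 and Pira2) were highest in replicate 3 as well. The part of these cells in the levels of the low group was not tested, and in bulk samples fewer cells of a type and less RNA per cell cannot be told apart.

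The sums of the lymphoid lists were not highest in replicate 3. The T cell markers summed to 13.7, 16.3 and 15.3 RPKM, with 4 of 10 highest in replicate 3, near the 37.5% of genes tested. Cd247 and Lat, 2 of the 10, stood at or above 1 RPKM in each library. The mature B and B-1 cell markers summed to 246, 254 and 225 RPKM and had 3 of 10 highest in replicate 3, also near 37.5%. They were led by Ighd, while Cr2 and Fcer2a, which mark mature B cells, stood at 0.243 ± 0.105 and 0.185 ± 0.0306 RPKM. The NK cell list summed to 4.10, 5.78 and 4.37 RPKM, and the plasma cell list, led by Irf4, which pre-B cells also express, to 324, 317 and 305 RPKM.

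**Figure D3:**
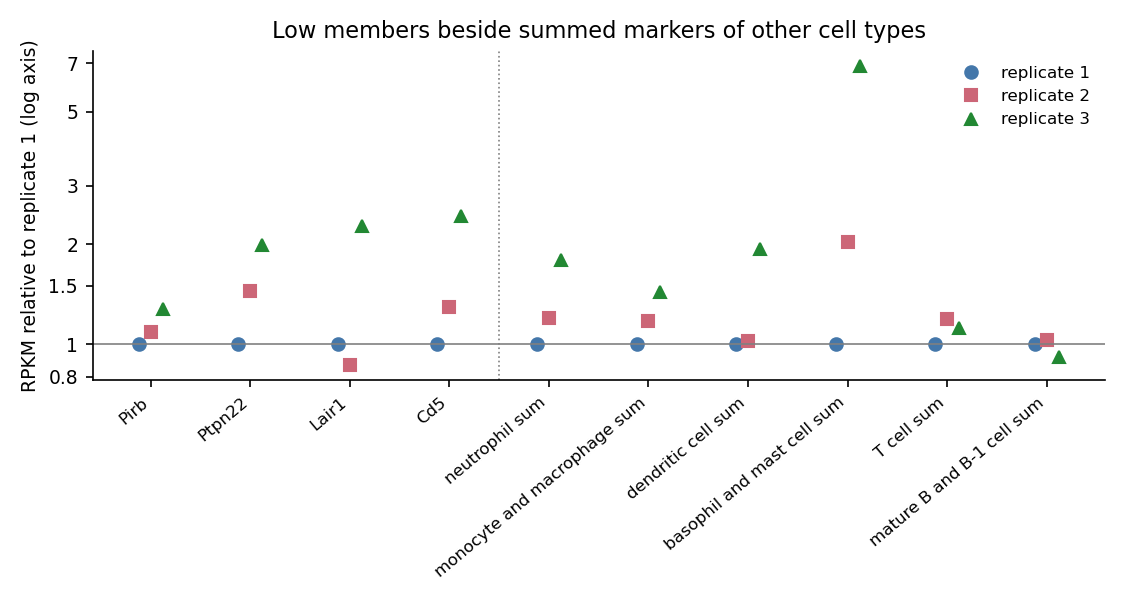
Level of the 4 low genes, and summed level of 6 marker lists, each relative to replicate 1 (RPKM ratio, log axis). Replicate 3 lies highest for Pirb, Ptpn22, Lair1 and Cd5 and for the neutrophil, monocyte and macrophage, dendritic cell, and basophil and mast cell sums, but not for the T cell or the mature B and B-1 cell sums.

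For each of the 10, the genes closest in level over the 3 libraries were found by Euclidean distance in log2(RPKM + 0.5) among 11595 other tested genes with a symbol. With only 3 libraries this distance is set mainly by the mean level. Cd72 lay closest to Arhgdib (distance 0.10), and Fcgr2b had the shortest distance of all, 0.02, to Tmem134. Siglecg lay closest to Rps23 (0.10), Ptpn6 to Hmga1 (0.06), Cd22 to Mrpl52 (0.05) and Dok3 to H3f3b (0.12). In the low group Pirb lay closest to Prr5 (0.05), Ptpn22 to Hacd4 (0.06), Lair1 to Il13ra1 (0.16) and Cd5 to Chdh (0.10).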

How the data were processed

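The authors deposited raw read counts per Entrez gene, with a gene length in bases, for 3 libraries. Reads were summarised with featureCounts on mm9, and CASAVA was used, per the submitters' processing notes. Aligner, annotation, strand setting and the rule for multi-mapping reads: the sources used here do not give them. Symbols came from RefSeq on GRCm38.p6 by Entrez identifier (24176 of 26286 matched, and 158 of 161 list genes). Libraries were scaled by TMM (factors 1.0042, 0.9994 and 0.9964) and RPKM was computed from the deposited counts and lengths. Tests used edgeR 4.0.16 in R 4.3.3 (glmQLFit, glmQLFTest, filterByExpr with a minimum count of 10 and total of 15, Benjamini-Hochberg threshold 0.05), with DESeq2 1.42.0 as an alternative. Only counting error enters the 95% intervals and the limit of 3 counts. The tests were tried on simulated data. Words of 31 bases were compared among GRCm38 transcripts. Named are the 10 genes, their nearest genes, the gate genes, and of other lists all members up to 7, otherwise the 4 highest and 2 lowest. Members and lists were chosen with earlier results of these data known; markers named beyond that rule were chosen after their values were seen. Figures used matplotlib 3.10.9. Results for some genes are not reported here.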

Additional observations from a re-analysis of the deposited data

How the results depend on the processing

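Of 60 levels recomputed under other settings, 50 moved by less than the SD between libraries. The 10 that moved further were those in TPM, which is another unit. In TPM the order of the 10 genes was the same and each value higher (Cd72 1077 and Cd5 0.579 TPM). The tally is no measure of robustness, because a mean with 1 library left out cannot move by the SD. The scaling settings could also change little, with TMM factors from 0.9964 to 1.0042. The count of genes at or above 1 RPKM in each library was 7 or 8 under all alternatives. All 48 alternative values of the differences between gene pairs kept their sign. For pairs with the same sign in every library this was fixed in advance for other pseudocounts and for a library left out. Only the values per count could have reversed for those pairs. Over all genes, the count with spread beyond Poisson noise ranged from 3149 to 5600 with 1 library left out. The count beyond genes of like abundance, 2 of 12147, was 47 with all genes with a count, 0 with a robust fit, and 2 to 13 with 1 library left out, and none of the 10 genes was called, where tested, under the 6 alternatives run. The CASAVA count, 9, was 36 with DESeq2, 23 with no scaling, 0 with all genes with a count and 0 after replicate 3 was thinned to match the lowest total count, with none of the 10 called among those tested (thinning left Lair1 and Cd5 untested). The causes were not tested. Leaving out replicate 1 or 2 gives that contrast no test; the log2 ratio of Lair1 was then 1.29 or 1.10 (chosen after seeing the data). No paired analysis was possible because the samples form 1 group. Depth limits Cd5, Lair1 and Ptpn22, which had 4 to 25 counts in replicates 1 and 2.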

Other observations

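The values here were picked out after they were seen. Ptpn3, a phosphatase of the same family as Ptpn6, had 89 counts (1.12 RPKM) in replicate 1 and 156 counts (0.766 RPKM) in replicate 3 but 0 in replicate 2, where 3 counts would be 0.0392 RPKM. Replicate 2 was by contrast the highest library for a pair of collagen genes: the 3 libraries, in order, held 8, 87 and 27 counts of Col1a1, and 1, 43 and 3 counts of Col1a2. Btla, an inhibitory receptor of lymphocytes, was likewise highest there, with levels of 8.38, 13.0 and 5.99 RPKM in that order. The myeloid receptor Lilrb4a was highest in the third library, with levels of 2.54, 2.46 and 5.75 RPKM.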
